A study of Mus musculus with 24 samples.

Results

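A set of 9 digestive enzymes of the enterocyte surface was followed through 24 RNA sequencing libraries of mouse intestinal organoids. The members were chosen by name and matched to the Ensembl identifiers of the deposited count tables, and all 9 were found among 45706 identifiers in each table. They are the disaccharidases sucrase-isomaltase (Sis), lactase (Lct), maltase-glucoamylase (Mgam) and trehalase (Treh), the peptidases aminopeptidase N (Anpep), dipeptidyl peptidase 4 (Dpp4) and aminopeptidase A (Enpep), and the intestinal alkaline phosphatases Alpi and Akp3. Organoids came from the proximal small intestine (SI) or the colon (COL) of C57BL/6N mice. The methods add Wnt3a and a GSK3 inhibitor to the medium of colon crypts only. The BRAF cultures were BraffloxV600E/+;Villin::CreERT2, the p53 cultures Trp53LSL-R172H/+;Villin::CreERT2, and the BRAFp53 cultures carried both conditional alleles with the same Cre. All cultures therefore hold the Cre, which 4-hydroxytamoxifen (4-HT) activates and which the Villin promoter limits to epithelium. For each genotype and tissue there were 2 non-induced libraries (off, treated with ethanol) and 2 induced libraries (on, treated with 4-HT at 0.5 µM in SI and 3.5 µM in COL for 24 h), and RNA was taken on day 8 in SI and day 3 in COL. Each genotype was 1 organoid culture per tissue. The methods name 1 donor mouse per genotype, but sex-linked genes, given below, differed between the tissues for 2 genotypes. The 2 libraries of a group thus measure handling and not the spread between animals, and genotype and donor cannot be told apart.

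Enterocytes carry these enzymes on the brush border, the carpet of microvilli that faces the gut lumen. The disaccharidases split sugars, the peptidases trim the ends of short peptides, and intestinal alkaline phosphatases remove phosphate from nutrients and from bacterial lipopolysaccharide. Most of them are used as marks of mature absorptive cells, and in the mouse lactase declines after weaning while sucrase-isomaltase rises.

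The libraries held 51174821 to 78175143 counts in COL and 44350747 to 68214835 counts in SI. The detection floor was set at 3 counts per library, which is 0.0408 to 0.0638 counts-per-million units (CPM) in COL and 0.0437 to 0.0774 CPM in SI. CPM values were scaled with TMM factors (trimmed mean of M-values) of each tissue's fit, and the SE of a fold change comes from the edgeR fit. Trp53 rose by 0.94 (log2) in COL p53 and by 0.94 in COL BRAFp53 on libraries (edgeR adjusted p = 0.0227 and 0.000623) and by 0.52 in SI BRAFp53 on libraries (adjusted p = 0.0236), while its change of 0.76 in SI p53 libraries and those of Braf did not pass the threshold. In the cultures without the Trp53 allele, Trp53 fell by 0.44 in COL BRAF (adjusted p = 0.0332) and by 0.62 in SI BRAF on libraries (adjusted p = 0.00351). Summed markers of stroma and immune cells lay at or under 2.58 CPM in every group. The colonocyte gene Car1 was at 1470 CPM or more in every COL library and had no count in 10 of 12 SI libraries.

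Beside these checks, 1 library and 1 culture stood apart, and whether either holds material of another culture was not tested. Xist, transcribed from the inactive X chromosome, was at 15.4 CPM in SI BRAF on replicate 1, at 0.206 to 0.437 CPM in the other 3 SI BRAF libraries and at 104 to 150 CPM in the other SI cultures. The Y-linked gene Ddx3y was at 30.5 to 36.2 CPM in SI BRAF and at 51.2 to 71.7 CPM in all COL libraries, but had 0 to 4 counts in SI p53 and SI BRAFp53 libraries, so that the levels go against a shared animal for the SI and COL cultures of these 2 genotypes. The methods name a donor mouse for each genotype, and whether libraries were exchanged was not tested. The COL BRAF culture had Gata4, a transcription factor of the proximal gut, at 35.8 to 54.8 CPM, against 0.32 to 2.95 CPM in the other COL cultures and 72.9 to 109 CPM in SI. Its off libraries also had the lowest Car1 level of the COL cultures (1470 and 1510 CPM). Some counts in SI BRAF organoids and between the off tissues are therefore also given without this library or this culture.

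Upstream sequences of 4 members are shown, because the results turn on Akp3, Alpi, Lct and Sis. They are the 250 bases before the RefSeq start in build GRCm38.p6, on the strand of the gene. Capitals mark matches on either strand to 3 motifs. They are TTTAT, the core of a site for the Cdx homeodomain factors, GATAA for the zinc finger factors Gata4 to Gata6, and CAAAGTC for the nuclear receptors Hnf4a and Hnf4g. In Lct a reversed match of the Gata motif overlaps one of the Cdx motif.
Akp3, chr1:87124704-87124953, plus strand: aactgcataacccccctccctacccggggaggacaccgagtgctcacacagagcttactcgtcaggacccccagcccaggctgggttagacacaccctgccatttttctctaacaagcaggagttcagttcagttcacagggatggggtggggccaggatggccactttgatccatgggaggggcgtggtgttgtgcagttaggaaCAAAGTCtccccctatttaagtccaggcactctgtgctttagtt
Alpi, chr1:87101607-87101856, minus strand: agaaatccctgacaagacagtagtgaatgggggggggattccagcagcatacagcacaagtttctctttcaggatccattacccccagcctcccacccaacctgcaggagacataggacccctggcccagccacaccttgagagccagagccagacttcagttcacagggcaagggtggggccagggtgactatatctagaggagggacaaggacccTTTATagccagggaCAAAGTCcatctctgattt
Lct, chr1:128328319-128328568, minus strand: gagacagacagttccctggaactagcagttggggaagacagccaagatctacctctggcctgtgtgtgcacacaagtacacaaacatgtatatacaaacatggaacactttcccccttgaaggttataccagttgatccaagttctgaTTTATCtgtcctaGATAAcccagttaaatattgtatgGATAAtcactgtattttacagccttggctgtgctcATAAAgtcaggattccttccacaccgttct
Sis, chr3:72967864-72968113, minus strand: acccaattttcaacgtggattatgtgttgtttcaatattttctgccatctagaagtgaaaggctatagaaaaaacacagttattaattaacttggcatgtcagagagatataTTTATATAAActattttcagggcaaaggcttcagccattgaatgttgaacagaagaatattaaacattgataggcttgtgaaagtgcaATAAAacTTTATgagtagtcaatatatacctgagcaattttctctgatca
The other members lie at chr6:40628831-40769123 (Mgam, plus strand), chr9:44673233-44686305 (Treh, plus), chr7:79821803-79861059 (Anpep, minus), chr2:62330073-62412231 (Dpp4, minus) and chr3:129269175-129332720 (Enpep, minus), each a protein-coding gene of GENCODE M21. The letters CAAAGTC stood in the windows of 3 of 9 members (Treh, Alpi and Akp3) and in 3.8% of 27025 mouse promoters of this length. GATAA was found in 4 members (23% of promoters) and TTTAT in 6 (38.1%). The letters of an AP-1 site (TGACTCA, 4.43% of promoters) and of an Ets site (CCGGAAG, 7.05%) were in none of these 9 windows. Akp3 and Alpi lie side by side on chromosome 1 (87124973 to 87127912 and 87098002 to 87101606), next to another phosphatase gene, Alppl2 (87086694 to 87089928). Their windows share the run TTCAGTTCACAGGG, which starts 122 bases before the start of Akp3 and 94 bases before that of Alpi and stood in 2 of 27025 promoters. Its first 13 bases, TTCAGTTCACAGG, were also found before Alppl2 and in 5 promoters in all. The coding sequences of Alpi and Akp3 were identical at 80.9% of 1659 aligned bases, yet 2.15% of the 50-base windows of the Akp3 transcript and 1.57% of those of Alpi recurred in another gene of the cluster. How the counting treated reads that match more than 1 gene is not stated.

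In off organoids, all 9 enzymes were higher in SI than in COL (edgeR quasi-likelihood test on 3 cultures against 3, with the off libraries of a culture summed), where 29.6% of 17789 genes were called and 12.6% were higher in SI. Akp3 entered this test only through its SI counts, so its call was settled by that choice. With at least 10 counts required in every culture, 8 members were called higher. The culture day, the medium, and the sex for p53 and BRAFp53 cultures, also differed between the tissues and cannot be told apart from them. Cell type markers differed as well (17% of all genes were lower in SI). Higher in SI were 4 of 5 enterocyte and 1 of 4 stem cell markers. Lower were 3 of 4 goblet cell, 3 of 4 Paneth cell, 3 of 3 tuft cell, 2 of 3 enteroendocrine, 2 of 4 stem cell, 1 of 3 colonocyte and 1 of 3 epithelium markers. Without the COL BRAF culture (12.7% higher and 16.4% lower), 1 enterocyte marker was also lower. There 2 of 4 goblet cell and 1 of 4 stem cell markers were lower, and the other counts were the same. The part of these markers was not tested. Per kb of transcript, the order in SI was Sis (326 ± 36.2 CPM per kb, SD, n = 3 cultures), Alpi (292 ± 154), Anpep (112 ± 40.1), Mgam (95.7 ± 32.2), Treh (90.4 ± 26.1), Enpep (33.8 ± 4.25), Akp3 (19.2 ± 13.8), Dpp4 (14.9 ± 2.2) and Lct (5.66 ± 3.23). By the ranges over the 3 cultures, the neighbours Treh and Enpep were apart, as were Dpp4 and Lct, and all other neighbours overlapped. Alpi also overlapped Mgam, Anpep overlapped Treh, and Akp3 overlapped Lct. In COL the order was Anpep (50.4 ± 21.4 CPM per kb), Mgam (41.4 ± 13), Alpi (33.8 ± 4.95), Sis (29.3 ± 29.4), Enpep (15.8 ± 3.4), Dpp4 (6.5 ± 2.56), Treh (1.39 ± 0.669), Akp3 (0.0412 ± 0.0713) and Lct (0.0238 ± 0.0041), where the first 4 overlapped each other, Sis also overlapped Enpep and Dpp4, and Akp3 overlapped Lct. The tissues thus differed least in the peptidases and in Mgam, with log2 differences of 1.34 (Enpep, SE 0.195, adjusted p = 0.00438) to 1.45 (Mgam, SE 0.312, adjusted p = 0.0145, and Dpp4, SE 0.307, adjusted p = 0.014).

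Akp3, Lct and Treh had the largest differences between the tissues. Treh was at 185 ± 53.5 CPM in SI and 2.84 ± 1.37 CPM in COL off cultures (log2 difference 6.26, SE 0.458, adjusted p = 0.000871). Lct was at 36.2 ± 20.7 CPM in SI and 0.153 ± 0.0263 CPM in COL (8.14, SE 0.55, adjusted p = 0.000817), where no library had more than 20 counts. Akp3 had 21 and 11 counts in the COL BRAF off libraries and 0 counts in the off libraries of the other COL cultures, against 504 to 3896 counts in SI. Its fitted difference of 9.13 (SE 1.43, adjusted p = 0.00531) depends on the prior count, since it rests on these 0 counts. Sis had the largest SD in CPM among COL cultures, from 47.7 CPM in p53 over 143 in BRAFp53 to 466 in BRAF off libraries. Its tissue difference was 3.73 (SE 0.774, adjusted p = 0.0129) and 4.95 without the COL BRAF culture (adjusted p = 0.00277), and it did not pass without the COL BRAFp53 culture (3.51, adjusted p = 0.0541). Anpep (1.39, adjusted p = 0.0386) was the least firm of the 9, with adjusted p of 0.0512 to 0.12 when any culture other than SI BRAF was left out (1.12, adjusted p = 0.0527, without COL BRAF). Without the COL BRAF culture the other 8 were called, with 8.22 for Lct, 6.03 for Treh, 3.32 for Alpi, 1.71 for Mgam, 1.6 for Dpp4 and 1.20 for Enpep, beside Sis as above and Akp3, which then had 0 counts in all COL off libraries.

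**Figure D1:**
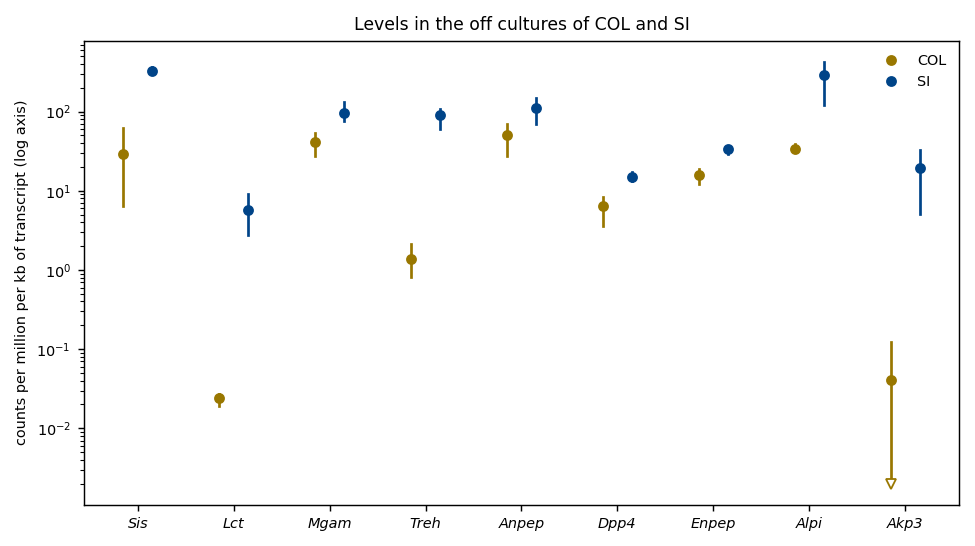
Levels of the 9 enzymes in off organoids, in CPM per kb of transcript on a log axis. Dots are means of 3 cultures and lines run from the lowest to the highest culture, and the open triangle marks COL cultures with 0 Akp3 counts. All enzymes sit higher in SI, with Lct, Treh and Akp3 the farthest apart.

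In COL, all called changes of the enzymes were falls. With BRAFV600E, 4 of 9 were called lower and 0 higher (background 19.9% of 18972 genes called, 9.61% lower). With p53R172H, 3 were called lower (background 0.111% lower and 0.0316% higher), and with both oncogenes 6 were called lower (background 7.76%). Akp3 entered the COL test only through its counts in BRAF off libraries. Over the members with more than 3 counts in some library of both groups, the median log2 fold change was -0.72 in BRAF (8 members), -1.50 in p53 (8 members) and -1.59 in BRAFp53 organoids (7 members), beside -0.0113, 0.000708 and -0.0442 over all genes tested. Bulk libraries cannot tell fewer enterocytes from less RNA per enterocyte.

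Sucrase-isomaltase, which splits sucrose and maltose, fell in all 3 COL cultures. Sis was at 433 and 499 CPM in BRAF off and 253 and 220 CPM in BRAF on libraries. In p53 organoids it was at 47.2 and 48.2 CPM off and 11 and 13 CPM on, and in BRAFp53 organoids at 132 and 154 CPM off and 39 and 14.8 CPM on. On and off libraries did not overlap in any culture. The share of all COL genes without overlap was not counted. In SI p53 organoids, where no gene was called, that share was 35.5%. The log2 fold changes were -0.98 in BRAF (SE 0.304, edgeR adjusted p = 0.0406), -1.996 in p53 (SE 0.32, adjusted p = 0.0456) and -2.40 in BRAFp53 organoids (SE 0.32, adjusted p = 0.000507). Only the last held when single libraries were left out (adjusted p up to 0.00291), since the BRAF and p53 calls were lost without any of their 4 libraries (adjusted p = 0.0835 to 0.172 and 0.0514 to 0.181).

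The other disaccharidases had smaller or less certain changes. Mgam, which digests starch fragments, went from 451 and 486 to 288 and 303 CPM in BRAF organoids (log2 fold change -0.67, SE 0.104, adjusted p = 0.00107) and from 357 and 385 to 210 and 193 CPM in BRAFp53 organoids (-0.88, SE 0.104, adjusted p = 0.000243). In p53 organoids it was at 261 and 223 CPM off and 180 and 188 CPM on (-0.39, SE 0.104, adjusted p = 0.208). Mgam was the only member whose BRAF call held without each of the libraries (adjusted p up to 0.0139). Treh was low throughout, and fell in BRAFp53 organoids from 277 and 288 counts to 35 and 1 counts (log2 fold change -4.09, SE 1.02, adjusted p = 0.0172). Without BRAFp53 on replicate 2, the library with 1 count, it did not pass (-3.18, adjusted p = 0.0582). Treh had 168 and 43 counts off and 17 and 37 on in BRAF organoids (-1.67, SE 0.941, adjusted p = 0.253). In p53 organoids it had 176 and 160 counts off and 80 and 21 on (-1.75, SE 0.916, adjusted p = 0.675). Both passed with genes of low count kept in the fit (adjusted p = 0.0109 and 0.0323), a setting that also called more genes over all. Lct had 0 to 20 counts per COL library and gave no interpretable change.

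Of the peptidases, which release amino acids and dipeptides from peptide ends, Anpep fell in every COL culture. Anpep was at 122 and 104 CPM off and 64.7 and 66.8 CPM on in BRAF, at 245 and 204 off and 87 and 85.6 on in p53, and at 342 and 233 off and 115 and 84.2 on in BRAFp53 organoids. Its log2 fold changes were -0.78 (SE 0.187, adjusted p = 0.0115), -1.38 (SE 0.188, adjusted p = 0.0227) and -1.53 (SE 0.189, adjusted p = 0.000301). The first 2 calls held without only 1 of the 4 libraries each, with adjusted p up to 0.0836 in BRAF and 0.181 in p53 organoids when another was left out.

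Dpp4, which also cleaves incretin hormones, and Enpep, which cleaves angiotensin, were called lower in 2 COL cultures each. Dpp4 was at 48.3 and 47.6 CPM off and 20.2 and 25.9 CPM on in BRAF, and at 62.7 and 42.6 CPM off and 18 and 17 CPM on in BRAFp53 organoids. It fell by 1.06 (SE 0.329, adjusted p = 0.041) and 1.59 (SE 0.333, adjusted p = 0.0068), and the first call was lost without any of the 4 libraries (adjusted p = 0.0802 to 0.22). In p53 organoids Dpp4 went from 25.7 and 19.6 CPM to 4.03 and 10.3 CPM, which did not pass (-1.66, SE 0.34, adjusted p = 0.112). Its log2 fold change was -2.50 without p53 on replicate 2, and it passed with DESeq2 (-1.64, adjusted p = 9.4e-05). A share of 3.67% of the Dpp4 exon bases lies opposite the antisense gene Gm13561, and whether the counting used strand is not stated. Enpep fell with p53R172H from 93.1 and 85.3 to 22.7 and 36 CPM (-1.60, SE 0.263, adjusted p = 0.0461), a call that held only without on replicate 2 (adjusted p = 0.0271, and 0.052 to 0.23 without another library). With both oncogenes Enpep fell from 72.5 and 81.2 to 21.1 and 11.3 CPM (-2.24, SE 0.27, adjusted p = 0.000267). With BRAFV600E alone it was at 56.5 and 58.4 CPM off and 51.1 and 41.4 CPM on (-0.31, SE 0.258, adjusted p = 0.456). Enpep was the only member whose COL BRAFp53 response was called different from its COL BRAF response (difference -1.93, SE 0.369, adjusted p = 0.0458, against 0.907% of genes called, 0.374% lower and 0.532% higher), and this call held in 2 of 8 fits with a library left out (adjusted p up to 0.157).

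The alkaline phosphatases gave no called change in COL. Alpi was at 106 and 40.6 CPM off and 112 and 131 CPM on in BRAF (log2 fold change 0.72, SE 0.569, adjusted p = 0.43), at 118 and 66.6 off and 57 and 13.5 on in p53 (-1.39, SE 0.578, adjusted p = 0.537), and at 85.9 and 56.4 off and 80 and 48 on in BRAFp53 organoids (-0.15, SE 0.567, adjusted p = 0.894). Its SE of 0.567 to 0.578 was larger than those of Sis, Mgam, Anpep, Dpp4 and Enpep in these fits (0.104 to 0.34). With genes of low count kept in the fit, Alpi passed in BRAF (0.71, adjusted p = 1.71e-05) and p53 organoids (-1.39, adjusted p = 1.36e-18). Its fold changes hardly moved, and this setting also took the COL p53 calls over all genes from 27 to 569. Akp3 had no count in BRAF and p53 on libraries, and 5 and 3 counts in BRAFp53 on libraries.

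**Figure D2:**
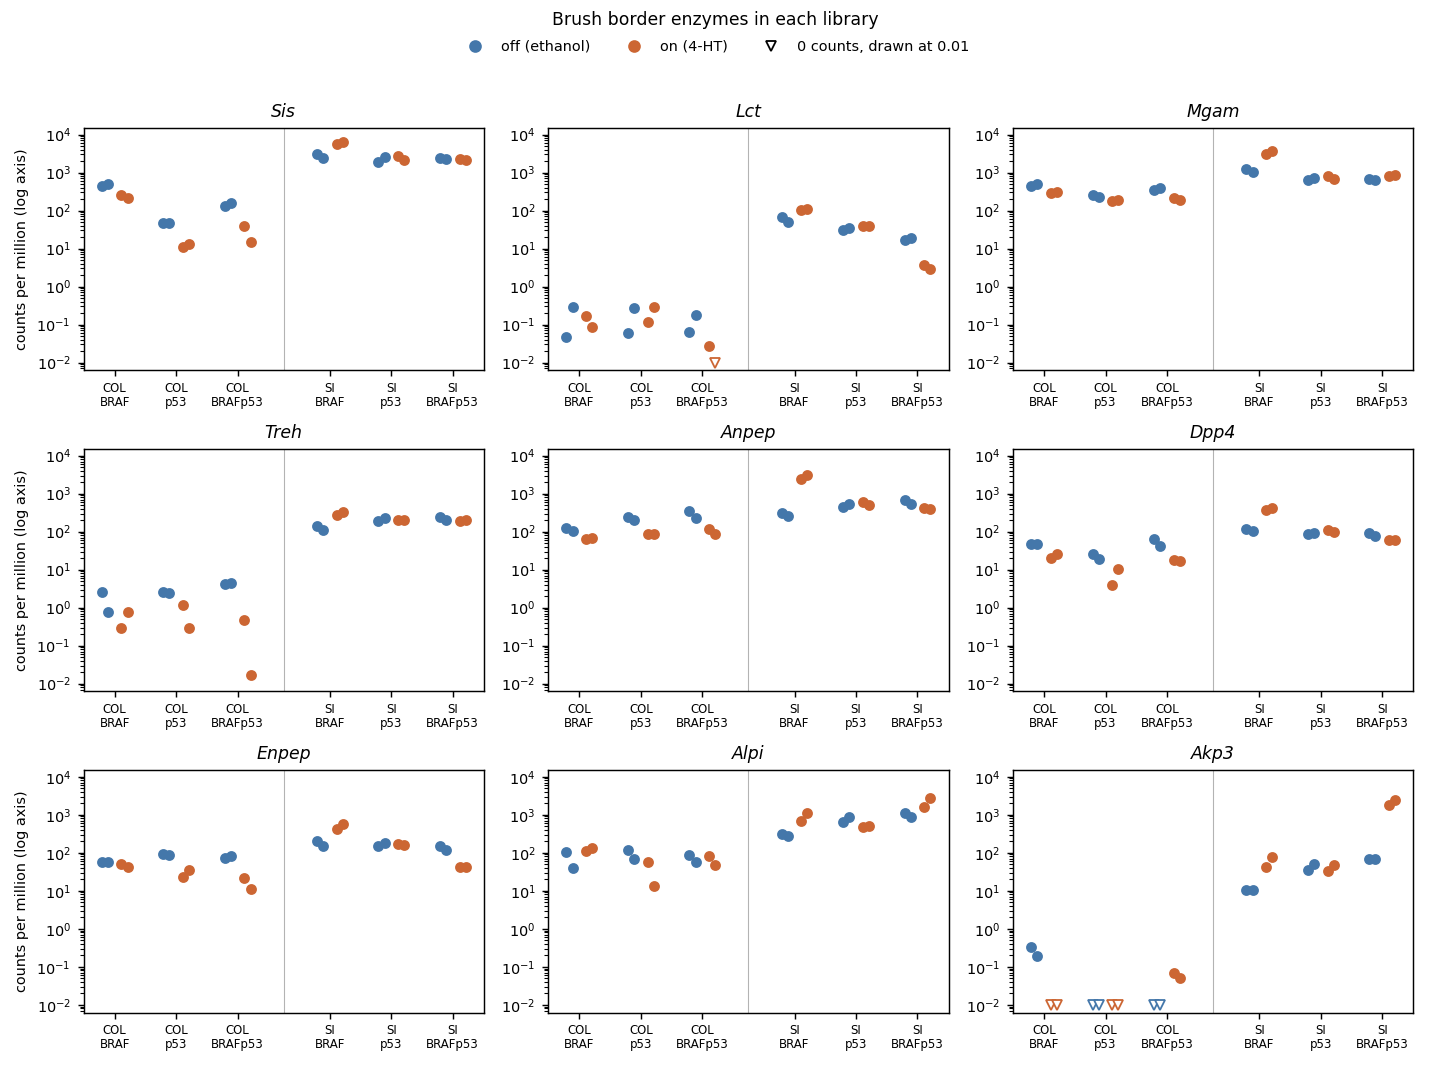
Level of each enzyme in each of the 24 libraries, in CPM on a log axis, with COL cultures on the left and SI cultures on the right of each panel. Blue dots are off and orange dots on libraries. In SI BRAF organoids all 9 enzymes are higher on than off, Akp3 climbs to 1820 and 2490 CPM in SI BRAFp53 organoids, and in COL the orange dots of Sis, Mgam, Anpep and Dpp4 lie below the blue dots.

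In SI, BRAFV600E alone raised all 9 enzymes (background 31.7% of 16856 genes called, 17.5% higher and 14.2% lower), with a median log2 fold change of 1.54 beside -0.06 over all genes. On libraries lay above off libraries for all 9 members, as they did for 30.3% of all genes tested. Without replicate 1 of the on libraries, which held Xist transcripts, all 9 were again called, with log2 fold changes of 0.94 (Lct) to 3.41 (Anpep). The strongest rise was that of aminopeptidase N, also known as a coronavirus receptor, with Anpep at 312 and 263 CPM off and 2500 and 3020 CPM on (log2 fold change 3.26, SE 0.16, edgeR adjusted p = 3.97e-08). Dpp4 rose from 117 and 103 to 374 and 430 CPM (1.87, SE 0.126, adjusted p = 3.19e-07), and Enpep from 199 and 151 to 434 and 588 CPM (1.54, SE 0.175, adjusted p = 2.39e-05).

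The disaccharidases rose by 0.87 to 1.51 on the log2 scale. Sis, the most abundant enzyme, went from 3100 and 2370 to 5490 and 6330 CPM (log2 fold change 1.11, SE 0.154, adjusted p = 0.000128). Mgam rose from 1260 and 1050 to 2990 and 3610 CPM (1.51, SE 0.125, adjusted p = 1.81e-06) and Treh from 137 and 110 to 280 and 336 CPM (1.32, SE 0.138, adjusted p = 1.29e-05). Lct had the smallest rise, from 67.2 and 50 to 103 and 111 CPM (0.87, SE 0.151, adjusted p = 0.000699). Of the phosphatases, Alpi rose from 304 and 269 to 669 and 1110 CPM (1.64, SE 0.266, adjusted p = 0.000426) and Akp3 from 10.6 and 10.7 to 41.7 and 75.2 CPM (2.45, SE 0.268, adjusted p = 1.82e-05). For both, the lower on value was that of replicate 1, and without it the log2 fold changes were 1.98 and 2.84.

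Markers of other cell states moved in the same libraries, where 17.5% of all genes were called higher and 14.2% lower. The summed level of 5 enterocyte markers (Fabp1, Fabp2, Apoa1, Apoa4 and Krt20) was 6940 to 9090 CPM off and 34900 to 37500 CPM on, and all 5 rose. The 4 stem cell markers all fell, from a summed 326 to 356 CPM to 38.2 to 129 CPM, and the 4 Paneth cell markers went from 327 to 349 CPM to 97.9 to 128 CPM, with 2 called lower. All 3 tuft cell markers fell (10.5 to 11.5 CPM to 1.78 to 4.57 CPM), all 3 epithelium markers rose (4190 to 4210 CPM to 6630 to 7720 CPM), 1 of 4 goblet cell markers rose, and no enteroendocrine or colonocyte marker passed. Without on replicate 1 the counts of calls were the same for these lists, except that 1 colonocyte marker, Aqp8 (15 and 10 counts off, 69 and 0 on), was called lower (adjusted p = 0.0445). In COL BRAF organoids 10.3% of all genes were called higher and 9.61% lower. The stem cell markers went from 293 to 370 CPM to 82.7 to 122 CPM there (3 of 4 called lower). The enterocyte markers went from 950 to 952 CPM to 1990 to 2290 CPM (2 of 5 called higher and 1 lower). There the colonocyte markers went from 1500 to 1540 CPM to 3540 to 5530 CPM (2 of 3 higher), the goblet cell markers from 1320 to 1420 CPM to 2370 to 2570 CPM (2 of 4 higher), the enteroendocrine markers from 182 to 308 CPM to 460 to 536 CPM (2 of 3 higher) and the epithelium markers from 5370 to 5610 CPM to 11900 to 12900 CPM (2 of 3 higher), and 1 of 4 Paneth cell markers rose. In COL p53 organoids the enterocyte markers went from 1990 to 2010 CPM to 1330 to 1770 CPM, with a median log2 fold change of -1.07. Of these 5, 1 was called lower (Apoa1, -1.85, adjusted p = 0.0089, background 0.111%), and no marker of the other lists passed. In COL BRAFp53 organoids the stem cell markers went from 426 to 541 CPM to 108 to 152 CPM (3 of 4 lower) and the enterocyte markers from 1100 to 1310 CPM to 1640 to 2700 CPM (2 higher and 1 lower). Of the others, 2 of 4 goblet cell, 2 of 3 epithelium, 1 of 3 colonocyte, 1 of 3 enteroendocrine and 1 of 4 Paneth cell markers rose and 1 of 3 tuft cell markers fell. The background there was 9.95% higher and 7.76% lower. The part of these shifts in the enzyme levels was not tested.

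With p53R172H alone, no enzyme and no gene was called in SI. At an unadjusted p under 0.05, 1 member (Alpi) and 873 genes passed (5.18% of those tested), DESeq2 called 0 members and 65 genes, and limma-voom 0 members and 1 gene. The log2 fold changes of the 9 lay between -0.68 and 0.30. Alpi had the lowest value, at 642 and 896 CPM off and 462 and 495 CPM on (-0.68, SE 0.26, adjusted p = 0.834). Alpi on libraries lay below its off libraries. Lct (30.9 and 34.1 CPM off, 39.7 and 40.3 on) and Dpp4 (84.9 and 90.9 off, 110 and 97.1 on) lay above them without passing (0.30 and 0.24, adjusted p = 0.981 for both). The groups of the other 6 overlapped, and 35.5% of all genes tested did not overlap either way. Sis, among the 6, was at 1930 and 2490 CPM off and 2660 and 2080 CPM on.

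With both oncogenes, the SI enzymes split by gene. The phosphatases rose (2 of 9, background 6.98% higher), 4 members fell (background 4.53% lower), and Sis, Mgam and Treh did not pass. Akp3 was at 69 and 67.8 CPM off and 1820 and 2490 CPM on, a 31.6-fold rise (edgeR adjusted p = 5.18e-07). On the log2 scale the rise was 4.98 (SE 0.29), and 4.74 to 5.19 when single libraries were left out. For comparison per length, Akp3 was at a mean of 1030 and Sis at a mean of 295 CPM per kb in these on libraries. Alpi rose from 1120 and 868 to 1620 and 2840 CPM (1.17, SE 0.262, adjusted p = 0.011), but did not pass without on replicate 2 (0.72, adjusted p = 0.153) or off replicate 2 (1.01, adjusted p = 0.102). Alppl2, the third gene of the cluster, was at 6.07 to 12 CPM in all SI libraries, and its log2 fold changes of 0.10, 0.34 and 0.31 in BRAF, p53 and BRAFp53 organoids did not pass.

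Lactase fell the most in these organoids. Lct went from 16.8 and 18.4 to 3.72 and 2.86 CPM (log2 fold change -2.43, SE 0.171, adjusted p = 2.07e-06), and these on libraries had the lowest Lct level of the SI groups. Enpep fell from 154 and 119 to 42.5 and 42.6 CPM (-1.69, SE 0.177, adjusted p = 3.89e-05). Both held without each of the libraries. Anpep went from 697 and 540 to 419 and 404 CPM (-0.59, SE 0.147, adjusted p = 0.0206) and Dpp4 from 91.7 and 77.6 to 59.8 and 61.6 CPM (-0.48, SE 0.123, adjusted p = 0.0234). These 2 smaller falls each held in 1 of 4 fits with a library left out (adjusted p up to 0.2 and 0.205). Sis was at 2460 and 2270 CPM off (-0.10, SE 0.153, adjusted p = 0.752), Mgam at 675 and 655 CPM off and 827 and 849 CPM on (0.33, SE 0.123, adjusted p = 0.103), and Treh at 239 and 202 CPM off and 192 and 203 CPM on (-0.16, SE 0.136, adjusted p = 0.533). Goblet cell markers all rose in the same libraries, from a summed 448 to 473 CPM to 961 to 1150 CPM, and the enterocyte markers went from 15100 to 17900 CPM to 23100 to 24900 CPM (3 of 5 called higher). Of the others, 2 of 4 Paneth cell and 1 of 3 epithelium markers rose (background 6.98%). In turn 1 of 4 stem cell and both tested colonocyte markers fell (background 4.53%). Their part in the enzyme changes was not tested.

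**Figure D3:**
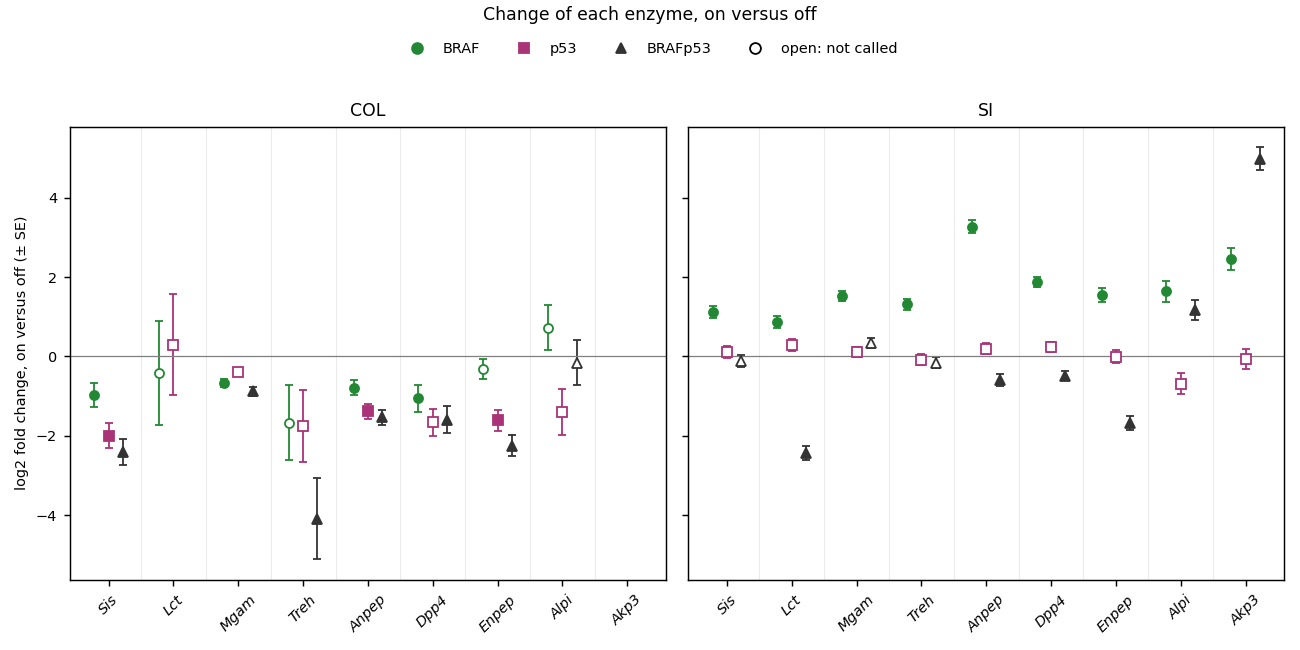
Log2 fold change of each enzyme, on versus off, with its SE from the edgeR fit, in COL on the left and SI on the right. Filled symbols passed an adjusted p of 0.05, and comparisons with at most 3 counts in every library of a group are not drawn. In SI the BRAF values are all above 0, from 0.87 to 3.26, while the BRAFp53 values run from -2.43 (Lct) to 4.98 (Akp3).

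The BRAFp53 response differed from the BRAF response for 8 of 9 enzymes in SI. For 7 it was lower (background 8.2% of genes called, 6.28% lower), and for Akp3 it was higher (background 1.93%). The differences were -3.85 for Anpep (SE 0.215, adjusted p = 2.15e-06), -3.30 for Lct (SE 0.228, adjusted p = 1.16e-05), -3.23 for Enpep (SE 0.249, adjusted p = 2.19e-05) and -2.35 for Dpp4 (SE 0.176, adjusted p = 2.08e-05), so the peptidases and lactase had values farther from 0 than Treh, Sis and Mgam, with -1.48, -1.22 and -1.18. Akp3 had a difference of 2.53 (SE 0.361, adjusted p = 0.00106). Alpi, its neighbour, had -0.47 (SE 0.367, adjusted p = 0.496). All 8 calls held in each of 8 fits with a library left out, that without the SI BRAF on library with Xist transcripts included. In the same comparison 11 of 12 structural genes of the brush border, 8 of 16 other apical enzymes and 4 of 5 enterocyte markers were also lower. So were 1 colonocyte and 1 of 3 epithelium markers. Higher were all 4 Paneth cell, 3 of 4 goblet cell and 2 of 4 stem cell markers, with median differences of 1.62, 1.02 and 1.46. Without the SI BRAF on library with Xist transcripts these medians were 1.77, 0.826 and 2.16. The part of these shifts was not tested. The genotypes came from different donors, and by the Ddx3y levels the SI BRAF and SI BRAFp53 donors also differed in sex. Off levels of the genotypes differed too, Akp3 being at 10.7 CPM in BRAF, 42.1 in p53 and 68.4 in BRAFp53 off libraries.

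Between the tissues, the response to the same alleles was higher in SI wherever it was called different. The joint fit of 24 libraries called 7 of 9 members for BRAF (background 7.4% of 19673 genes higher and 3.31% lower), 2 for p53 (Sis and Anpep, background 0.107% higher and 0.0102% lower) and 4 for BRAFp53 (Sis, Mgam, Treh and Anpep, background 2.13%), and 0 lower. For BRAF, the response of Anpep was 4.09 higher on the log2 scale (SE 0.275, adjusted p = 5.85e-08), that of Dpp4 2.97 (SE 0.387, adjusted p = 7.54e-05) and that of Mgam 2.22 (SE 0.173, adjusted p = 2.2e-07). Sis (2.13), Enpep (1.90), Treh (3.09) and Akp3 made up the rest, the last resting on 0 counts in COL BRAF on libraries. Without SI BRAF on replicate 1, 7 were again called. Treh did not pass without COL BRAF off replicate 1 (1.90, adjusted p = 0.189) or on replicate 1 (2.48, adjusted p = 0.0708). For p53, Sis (2.09, SE 0.387, adjusted p = 0.0378) held in 1 of 8 fits with a library left out and Anpep (1.57, SE 0.266, adjusted p = 0.0181) in 4 of 8. For BRAFp53, Sis (2.34), Mgam (1.25) and Treh (3.89) held in all 8, and Anpep (0.98, SE 0.265, adjusted p = 0.0464) in 3 of 8. The BRAF response was also higher in SI for 4 of 5 enterocyte markers, 7 of 12 structural genes and 10 of 16 other apical enzymes, and lower for 2 of 4 Paneth cell, 2 of 3 tuft cell and 1 of 4 goblet cell markers. For BRAFp53 (background 2.13% higher and 1.39% lower), 2 of 5 enterocyte, 2 of 4 goblet cell, 2 of 4 stem cell and 1 of 4 Paneth cell markers were higher. Lower were 1 of 5 enterocyte and 1 of 3 epithelium markers. Of 16 other apical enzymes 5 were higher and 1 lower, and 0 of 12 structural genes were called. For p53, 1 of 5 enterocyte markers was higher (background 0.107%). The part of these shifts in the enzyme differences was not tested. The BRAF comparison rests on the COL BRAF culture with its high Gata4 level and has no value without it. Dose, day, medium and, for p53 and BRAFp53, the donor's sex also differed between the tissues.

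Genes that build the brush border gave other counts than its enzymes in COL. Of 12 structural genes, 8 rose and 0 fell in COL BRAF organoids (background 10.3% higher, median log2 fold change 0.80), where 4 enzymes fell. Ezr, the membrane linker ezrin, rose by 1.51 (SE 0.181, adjusted p = 0.00021), and Eps8, which caps actin, by 1.24. Vil1, the actin bundler villin, rose by 0.80 (SE 0.14, adjusted p = 0.0021), from 471 and 466 to 856 and 777 CPM, and the protocadherin Cdhr2, which links microvilli tips, by 1.48. In COL BRAFp53 organoids 5 rose (background 9.95% higher) and 1 fell, with a median of 0.51. The one that fell was Pdzk1, a scaffold of apical transporters, with 75 and 62 counts off and 24 and 9 on. In COL p53 organoids 0 of 12 were called, with a median of -0.18 (edgeR quasi-likelihood test, with 0 of 12 at an unadjusted p under 0.05 and 0 called by DESeq2 or limma-voom). In SI BRAF organoids, enzymes and structural genes moved the same way, and all 12 structural genes rose (background 17.5% higher, median 1.67), Vil1 by 1.72 and Cdhr2 by 2.26. Without on replicate 1 all 12 again rose (median 1.75). In SI BRAFp53 organoids 6 rose and 0 fell (background 6.98% higher, median 0.39), led by Eps8 with 0.84 (adjusted p = 0.000291). The Villin promoter that drives the Cre is that of Vil1, a gene of this list.

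**Figure D4:**
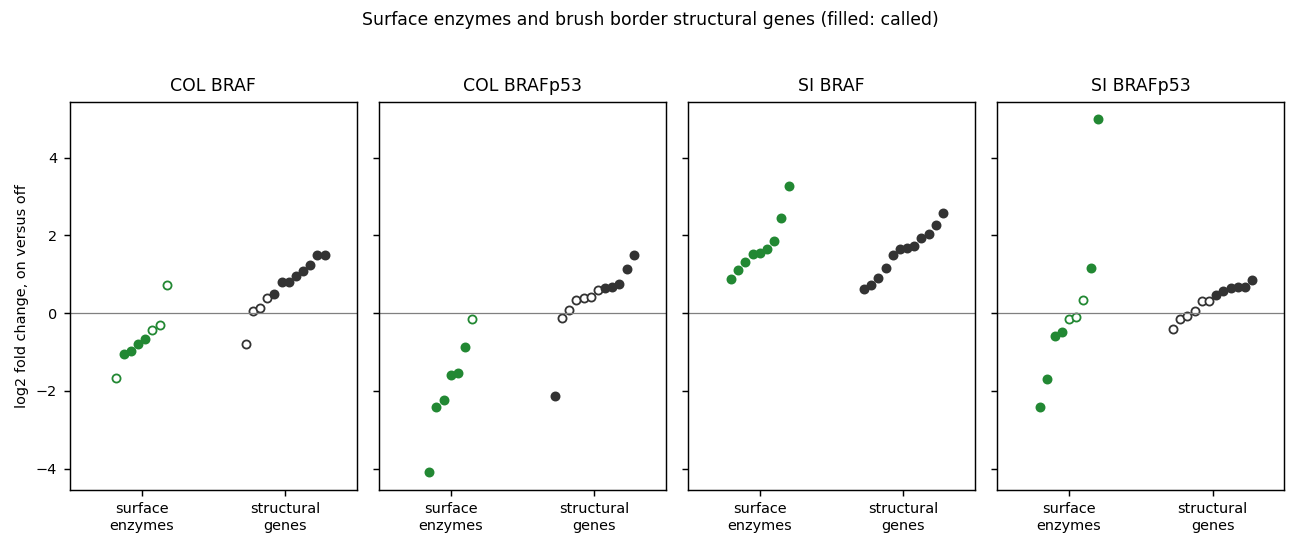
Log2 fold change, on versus off, of the enzymes (green) and of 12 structural genes of the brush border (black) in the 4 comparisons with the Braf allele, 1 dot per gene and filled where called. In COL the called enzymes lie below 0 and most called structural genes above it, whereas in SI BRAF organoids all dots of both lists are above 0.

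Among 16 other apical enzymes, 12 were called higher and 2 lower in SI BRAF organoids (background 17.5% and 14.2%), where all 9 members rose. The median was 2.05, and 2.08 without on replicate 1. The 6 with the lowest p, named next, all rose. Ggt1, which breaks down glutathione, rose by 2.59 (SE 0.151, adjusted p = 9.82e-08), the membrane dipeptidase Dpep1 by 2.25, the metalloprotease Mep1b by 2.68, the neutral endopeptidase Mme by 2.17, the angiotensin-converting enzyme Ace by 2.39, and Enpp3, an ectonucleotidase, by 6.04 from 2.93 and 0.729 to 117 and 115 CPM. In SI BRAFp53 organoids 4 rose and 3 fell (background 6.98% and 4.53%). Enpp3 rose there by 4.19 (SE 0.399, adjusted p = 1.8e-05), and Mep1b by 1.28. Tmprss15, the enterokinase that activates trypsinogen, had 1 and 0 counts off and 698 and 1052 counts on, and, outside this group, more than 4 counts in 2 libraries only (17 and 23, both of SI p53). The peptidases Mep1a, Naaladl1 and Xpnpep2 fell by 1.22, 1.14 and 0.95. In COL BRAF organoids 3 of 15 tested rose (Mep1b, Enpp3 and Nt5e, background 10.3%), in COL p53 organoids 1 fell (Naaladl1, by 1.45, background 0.111%), and in COL BRAFp53 organoids 2 rose (background 9.95%) and 5 fell (background 7.76%), with Mep1a, Naaladl1, Mme and Xpnpep2 falling by 1.27, 1.50, 1.99 and 1.02. In COL BRAFp53 organoids, Alppl2 went from 0 counts in both off libraries to 59 and 27 counts, and is 1 of the 2 that rose.

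Transcription factors known to bind genes of this kind were listed as well. Of 11, the COL BRAF comparison called 2 higher and 1 lower (background 10.3% and 9.61%). Onecut2, a homeodomain factor, rose by 1.01 (SE 0.155, adjusted p = 0.000945). The lower one was Hnf4g, a nuclear receptor of enterocytes, which fell by 0.74 (SE 0.192, adjusted p = 0.0179). In SI BRAF organoids 5 rose and 0 fell (background 17.5% and 14.2%), and Hnf4g rose by 0.85 (SE 0.177, adjusted p = 0.00256), from 127 and 98.4 to 200 and 205 CPM. Without on replicate 1, 4 were called higher and 1 lower, as Hnf4a no longer passed (0.26, adjusted p = 0.079) and Onecut2, at 14.5 and 16.9 CPM off and 20.6 and 5.37 CPM on, was called lower (-1.53, adjusted p = 6.78e-05). Klf4, a factor of differentiated epithelium, rose by 0.90 in COL BRAF, 1.75 in SI BRAF and 1.83 in SI BRAFp53 organoids (adjusted p = 0.00951, 4.29e-06 and 1.05e-05). Cdx1 and Cdx2 were called in none of the 6 on and off comparisons, with Cdx2 between -0.37 and 0.22. COL BRAFp53 organoids had 1 factor called, Gata6, which fell by 0.82 (adjusted p = 0.00219, background 7.76% lower), and SI BRAFp53 organoids had 1 (Klf4, background 6.98% higher). In off organoids 1 factor was higher in SI than in COL (background 12.6%) and 2 were lower (background 17%). Hnf4g differed by 2.63 (SE 0.34, adjusted p = 0.00314), Klf4 by -1.54 (SE 0.294, adjusted p = 0.00984) and Cdx2 by -1.005 (SE 0.202, adjusted p = 0.0115). Without the COL BRAF culture 3 were higher and 2 lower, with 2.37 for Hnf4g, -1.70 for Klf4 and -0.85 for Cdx2 (adjusted p = 0.00266, 0.0101 and 0.0254).

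The genes whose pattern over the 12 libraries of a tissue was most like that of Sis were sought among genes with an average log2 CPM of at least 3, by the root mean square difference of centred log2 levels. In COL, out of 9064 genes, they were Mttp, which loads lipoproteins (0.673), the water channel Aqp4 (0.784) and the gut chemokine Ccl25 (0.864). Mttp was at 152 and 153 CPM in BRAF off libraries, 11.5 to 27.9 CPM in the off libraries of the other COL cultures and 7.09 to 10.2 CPM in their on libraries, so that it shared with Sis both the high level of the COL BRAF culture and the fall. In SI, out of 8503 genes, the closest were Rnf13, a ubiquitin ligase (0.107), the riboflavin kinase gene Rfk (0.124) and the sialyltransferase St3gal4 (0.139). St3gal4 was at 2520 and 2710 CPM in BRAF on libraries and at 936 to 1300 CPM in all other SI libraries. The likeness is a description over 12 libraries that share cultures.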

How the data were processed

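The data are 24 RNA sequencing libraries of mouse organoids. The authors trimmed reads with Trimmomatic 0.36, aligned them with STAR 2.5.2b and deposited raw counts per gene, 1 table per tissue with no normalization. Their processing notes list the builds mm10 and mm9. The annotation release is not given in the sources used here, and 45143 of 45706 identifiers matched GENCODE M21. Groups came from the labels.

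Counts were tested in R 4.3.3 with edgeR 4.0.16 (factors by trimmed mean of M-values, TMM, filterByExpr, quasi-likelihood fit, Benjamini-Hochberg adjusted p under 0.05), with the 12 libraries of a tissue in 1 fit, all 24 for the response between tissues, and summed off libraries of 3 against 3 cultures for the off tissues. Fold changes in the text carry the SE and the edgeR adjusted p over all genes tested. The code was also run on simulated counts, and the outcome is not reported here. Alternatives were DESeq2 1.42.0, limma-voom (limma 3.58.1), other size factors and filters, left-out libraries and a replicate block. All members are named, and of each companion list some of the up to 6 genes called with the lowest p in a comparison. Cdx1, Cdx2, Alppl2, Onecut2 and marker genes are also named outside this rule. Counts of companion lists without SI BRAF on replicate 1 or the COL BRAF culture were added after seeing the data. The members and lists were chosen with earlier results of these data known. Of the companion transcription factors and motifs, 2 genes and 1 motif are not reported here.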

Additional observations from a re-analysis of the deposited data

Results flagged for a closer look

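The results here are those where the response of an enzyme was called different between genotypes or tissues by the test of the difference itself (edgeR, log2 scale, adjusted over all genes tested). Between BRAFp53 and BRAF organoids of SI, the response of the peptidases differed by -3.85 (Anpep), -3.23 (Enpep) and -2.35 (Dpp4). The disaccharidases differed by -3.3 (Lct), -1.48 (Treh), -1.22 (Sis) and -1.18 (Mgam), and the phosphatase Akp3 differed in the other direction, by 2.53. In COL the same difference was called for Enpep alone, with -1.93. Structural genes of the brush border (11 of 12 lower) and markers of other cell types moved in the same SI comparison. Both genotypes come from different donors, in SI also of different sex, and the part of these was not tested.

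Between SI and COL, the BRAF response was higher in SI by 4.09 for Anpep, 3.09 for Treh, 2.97 for Dpp4, 2.22 for Mgam, 2.13 for Sis and 1.9 for Enpep. Akp3 was called as well and is left out here, because it had 0 counts in COL BRAF on libraries. For p53 the response was higher by 2.09 (Sis) and 1.57 (Anpep), and for BRAFp53 by 3.89 (Treh), 2.34 (Sis), 1.25 (Mgam) and 0.98 (Anpep). Day, dose, medium and, for p53 and BRAFp53, the donor's sex differ with the tissue and cannot be told apart from it.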

How the results depend on the processing

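Of 1142 values of the enzymes under alternatives (98 results), most kept their direction and their side of the threshold. The number of enzymes called changed by over 1.5 times in COL p53 organoids (3 as reported, 6 with no filter on low counts, 5 with DESeq2), for the COL difference between BRAFp53 and BRAF (1 as reported, 5 with no filter), in SI p53 organoids (0 as reported, 1 with no filter) and for the p53 response between tissues (2 as reported, 6 with no filter, 4 each with at least 10 counts in every library, DESeq2 and limma-voom). With single libraries left out, 1 to 2 enzymes were called in COL BRAF, 0 to 2 in COL p53, 5 to 6 in COL BRAFp53, 9 in SI BRAF, 0 in SI p53 and 3 to 5 in SI BRAFp53 organoids. For the differences these ranges were 0 to 2 (COL BRAFp53 against BRAF), 8 (SI BRAFp53 against BRAF), 6 to 7, 0 to 3 and 3 to 4 (SI against COL for BRAF, p53 and BRAFp53) and 7 to 9 (off organoids, by culture). Anpep of the BRAFp53 tissue difference did not pass with RLE size factors (0.93, adjusted p = 0.063), while Dpp4 passed there with DESeq2 (1.10, adjusted p = 0.0394), limma-voom (1.13, adjusted p = 0.0492) and no filter (1.08, adjusted p = 9.73e-06). In COL p53, Mgam (adjusted p = 0.0416) and Dpp4 passed with DESeq2, and for the p53 tissue difference Dpp4 and Enpep passed with DESeq2, limma-voom, no filter and at least 10 counts. Mgam passed in SI BRAFp53 organoids with DESeq2 (0.35, adjusted p = 0.0498) and with no filter (0.34, adjusted p = 0.0314).

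Replicate numbers did not pair the libraries of a culture (r of deviations -0.0392 to 0.0573). With the replicate block, 2 enzymes were called in COL BRAF, 1 in COL p53 and 0 for the COL difference, and 1 for the p53 response between tissues. The calls lost were Sis (adjusted p = 0.0507) and Dpp4 (0.055) in COL BRAF, Sis (0.0664) and Enpep (0.0719) in COL p53, Enpep of the COL difference (0.0904), Dpp4 in SI BRAFp53 (0.0573) and Sis of the p53 tissue difference (0.112).

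Signs turned only in values that did not pass. Lct in COL BRAF organoids had 0.0913 with limma-voom, Enpep in SI p53 organoids had 0.0024 with RLE size factors and with DESeq2, 0.005 with no filter, 0.0015 with limma-voom and 0.0008 with the replicate block, and Lct of the p53 tissue difference had 0.0016 with DESeq2. With libraries left out, values crossed 0 for Lct in COL BRAF (-1.21 to 1.41) and COL p53 (-0.47 to 1.73), Alpi in COL BRAFp53 (-0.55 to 0.19), in SI p53 for Sis (-0.0779 to 0.299), Treh (-0.19 to 0.0332), Enpep (-0.13 to 0.13), Akp3 (-0.32 to 0.22) and Mgam (-0.0087 to 0.22), and for the tissue difference of Lct with BRAF (-0.52 to 2.07) and p53 (-1.45 to 0.76).

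Over all genes, COL p53 had 27 calls as reported, 569 with no filter, 324 with DESeq2 and 15 with the replicate block. The COL difference had 172, with 1312, 1364 and 17 under the same settings and 391 with at least 10 counts in every library. SI p53 had 0, 155 with no filter, 65 with DESeq2 and 1 with limma-voom, and the SI difference had 1383 and 2108 with DESeq2. The tissue differences had 23 for p53 (488, 162 and, with at least 10 counts, 39) and 693 for BRAFp53 (1548 and 1580), and the off organoids had 5270 and 3475 with the replicate block. With single libraries left out, the counts ranged from 1961 to 2489 in COL BRAF (3776 as reported), 0 (without off replicate 1) to 56 (without on replicate 2) in COL p53, 1699 to 2399 in COL BRAFp53 (3360), 3573 to 5343 in SI BRAF (5345) and 887 to 1333 in SI BRAFp53 (1941). For the differences they were 0 (without BRAF off replicate 1) to 279 in COL, 597 to 2128 (without BRAF on replicate 1) in SI, and 1202 to 1833, 3 to 46 and 235 to 723 between tissues for BRAF (2108), p53 and BRAFp53, and 2479 (without the SI p53 culture) to 5381 between off tissues. The cause of these shifts was not tested. With 2 libraries of 1 culture per group, values that miss the threshold do not show that levels were equal, and COL levels of Lct and Akp3 are near the limit of detection.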

Other observations

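Genes with a pattern like that of Akp3 over the 12 SI libraries were sought after its rise had been seen. The closest by root mean square difference of centred log2 levels were S100g (0.847), which encodes the calcium carrier calbindin-D9k of enterocytes, Anxa10 (1.33) and Pcx (1.36). In BRAFp53 organoids S100g was at 54.5 and 83.9 CPM off and 441 and 680 CPM on, Anxa10, a gastric annexin, at 4.16 to 6.01 CPM off and 189 to 238 CPM on, and the pyruvate carboxylase gene Pcx at 21.6 to 26.2 CPM off and 81 to 106 CPM on. In SI BRAF organoids all 3 were also higher on than off, with Anxa10 at 1.77 to 2.02 CPM off and 30.2 to 36.1 CPM on. These levels were not tested, since the genes were chosen for their pattern.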
